A study of Mus musculus with 9 samples.

Results

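The genes examined were Edn1, Ece1, Ednra, Ednrb, Agt, Ace, Agtr1a, Vipr1 and Pth1r, which encode ligands, processing enzymes and receptors of the endothelin, angiotensin, VIP and parathyroid hormone systems. They were chosen by symbol, as 9 of the 24453 genes in the deposited table, and all 9 were among the 13651 genes tested. Hepatic stellate cells (HSCs) came from the normal livers of wild-type C57BL/6J mice and were collected by density gradient centrifugation, with no transgene and no sort. CCl4-fib were CD45- GFP+ cells sorted by FACS from Col1a2-GFP Tg mice that received carbon tetrachloride (CCl4) by intraperitoneal injection at 1 ml/kg, 2 times per week for 8 weeks. NASH-fib were CD45- GFP+ cells sorted from MC/COL mice, a cross of MC4R-KO and Col1a2-GFP Tg mice, which were male, 8 weeks old at the start and fed Western diet for 20 weeks to give non-alcoholic steatohepatitis (NASH). The labels give C57BL/6J as the strain of every group, and the age of the wild-type and CCl4-treated mice was not given in the sources used here. GFP in both fibroblast groups is driven by the Col1a2 promoter, so the sort collects any CD45- cell with an active Col1a2 promoter. The HSCs differ from both fibroblast groups in the isolation method as well as in the disease, and these cannot be told apart. MC4R deletion and the diet are likewise present only in NASH-fib. Each group had 3 libraries, each from cells pooled from 3 to 5 mice, so every p-value measures the spread between such pools.

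Endothelin-1, cut from its precursor by endothelin-converting enzyme, and angiotensin II, cut from angiotensinogen by renin and angiotensin-converting enzyme, are peptides that contract smooth muscle and pericytes through G protein-coupled receptors. HSCs are the pericytes of the liver sinusoid, and both peptides are known to contract them and to act on fibrogenesis. VIP and parathyroid hormone act on class B receptors that raise cyclic AMP, and VIP is known as a vasodilator.

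Values are the deposited normalized signal, which is the number of reads on the exons of a gene multiplied by 1 factor per library. The libraries held between 3071070 and 5634273 reads on genes, so that 3 reads had a value between 2.38 and 4.37. Groups were compared with limma, and a gene was called where the adjusted p was under 0.05 and the log2 fold change was 1 or more in size. Mc4r, the gene deleted in MC/COL mice, was not read in HSCs or CCl4-fib (0 reads) but gave 4, 13 and 0 reads across the NASH-fib libraries and could not check the labels. Col1a1 and Acta2, markers of activated fibroblasts, were called higher in both fibroblast groups than in HSCs, and Lrat, whose product esterifies retinol for storage in quiescent HSCs, was called lower. NASH-fib replicate 1 stood apart. Its Pearson correlation across the tested genes was 0.768 with NASH-fib replicate 2, 0.815 with NASH-fib replicate 3 and 0.793 with HSC replicate 2. Without NASH-fib replicate 1, the same 5 receptors and Ace were still called in NASH-fib against HSCs. Their adjusted p-values (limma) ran from 0.00079 for Agtr1a to 0.0223 for Ednra. Markers of other cell types were read in all groups. The summed level of 15 sinusoidal endothelial markers ran from 17293.5 to 29035.1 in HSCs, from 425.5 to 585.2 in CCl4-fib and from 1736.7 to 6575 in NASH-fib. The sum of 14 hepatocyte markers ran from 30036 to 52434.3, from 3510.0 to 5791.1 and from 11671.7 to 37698.6 in the same order, and no marker of either list was at 0 in all libraries of a group. The most read marker reached 7.195 reads per base of exon in the hepatocyte list and 4.566 in the endothelial list. Reads per position were capped in counting, which may compress these sums. In bulk samples, fewer cells of a type and less RNA per cell cannot be told apart.

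**Figure D1:**
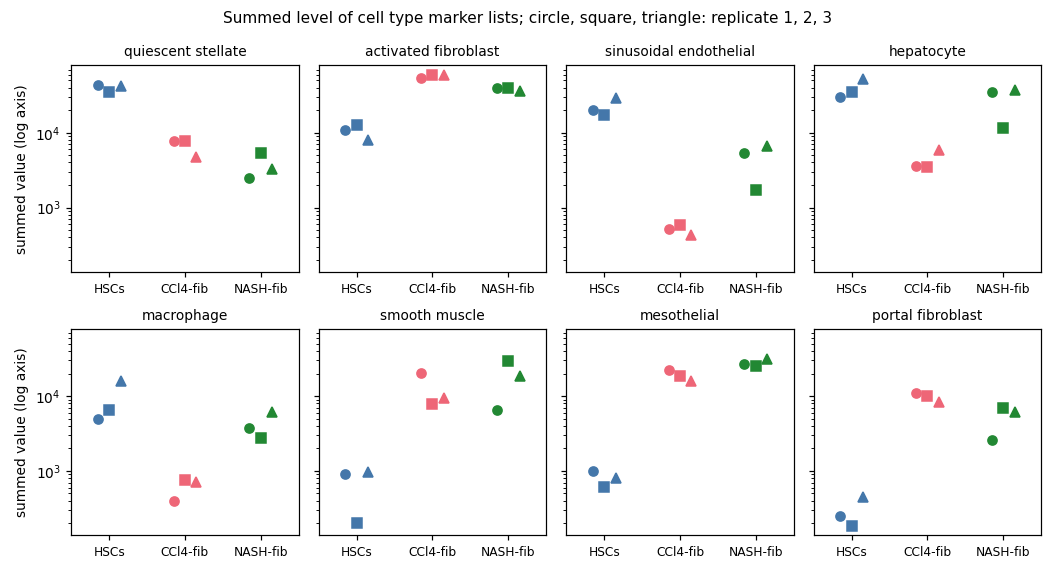
Summed normalized value of 8 cell type marker lists (log axis) in each library of the 3 groups, with symbols for replicates 1, 2 and 3. Sinusoidal endothelial markers were highest in HSCs (17293.5 to 29035.1) and lowest in CCl4-fib (425.5 to 585.2), with NASH-fib in between.

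Of the 9 genes, 5 receptors were called lower in both CCl4-fib and NASH-fib than in HSCs, beside 11.7% and 4.3% of all tested genes, and 1 enzyme was called higher in both, beside 16.2% and 8.23%. The sequences before the start sites of these 6 genes were looked up to show what they share. RefSeq promoters of build GRCm38.p6 were found for 8 of the 9 genes, that of Agtr1a not being among them. Pth1r had 3 starts among these promoters and Ace 2. The start nearest to that given with the deposited values was taken, and which start these cells use was not tested. The 250 bases before the start are given 5′ to 3′ on the strand of each gene for the 4 receptors that fell and for Ace, which rose. Capitals mark TATAAA and GGGCGG, the TATA box and the GC box bound by Sp1-type factors, on either strand. Ednra lies at chr8:77724453-77724702 and Ednrb at chr14:103843702-103843951, both on the minus strand. Vipr1 lies at chr9:121642466-121642715 on the plus strand, Pth1r at chr9:110747146-110747395 on the minus strand and Ace at chr11:105967698-105967947 on the plus strand.
Ednra: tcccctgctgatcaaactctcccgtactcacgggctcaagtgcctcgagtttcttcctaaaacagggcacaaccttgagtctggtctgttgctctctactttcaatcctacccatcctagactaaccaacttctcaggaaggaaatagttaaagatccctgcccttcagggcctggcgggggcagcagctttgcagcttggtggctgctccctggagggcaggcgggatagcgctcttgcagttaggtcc
Ednrb: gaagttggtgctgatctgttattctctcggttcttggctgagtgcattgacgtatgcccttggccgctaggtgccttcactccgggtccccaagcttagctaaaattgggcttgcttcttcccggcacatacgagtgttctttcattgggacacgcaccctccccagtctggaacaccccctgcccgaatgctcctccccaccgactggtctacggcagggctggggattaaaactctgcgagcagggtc
Vipr1: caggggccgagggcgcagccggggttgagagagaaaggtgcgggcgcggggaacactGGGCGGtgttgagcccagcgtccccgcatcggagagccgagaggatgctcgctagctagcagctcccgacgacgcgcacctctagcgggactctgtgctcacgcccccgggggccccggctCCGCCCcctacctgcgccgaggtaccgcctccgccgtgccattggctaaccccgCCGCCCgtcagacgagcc
Pth1r: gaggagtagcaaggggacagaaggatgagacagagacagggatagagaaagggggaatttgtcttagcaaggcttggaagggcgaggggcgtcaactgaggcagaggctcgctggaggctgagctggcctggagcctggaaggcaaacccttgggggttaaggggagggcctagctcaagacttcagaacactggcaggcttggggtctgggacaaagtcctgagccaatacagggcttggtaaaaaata
Ace: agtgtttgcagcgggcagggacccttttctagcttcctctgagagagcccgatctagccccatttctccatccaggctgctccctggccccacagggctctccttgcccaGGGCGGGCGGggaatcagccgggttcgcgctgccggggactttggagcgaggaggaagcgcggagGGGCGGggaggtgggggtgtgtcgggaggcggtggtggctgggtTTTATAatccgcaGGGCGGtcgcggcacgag
Motifs were searched on both strands over 300 bases, the 250 printed and the next 50. GGGCGG occurred at 4 places each in Ace and Vipr1, 1 of those in Vipr1 lying after the start, and in 35.6% of all 32817 promoters. TATAAA was found on the opposite strand of Ace at position -31 from the start and in 13.6% of all promoters. The E-box CANNTG, which 72.3% of promoters hold, was in Ednra and Pth1r, and Ednrb held none of the 7 motifs searched (these 3, the AP-1 motif TGANTCA, the TEAD motif GGAATG, the nuclear receptor half-site AGGTCA and the CArG box). GC content was 54.7% in Ednra, 58.7% in Ednrb and 54.3% in Pth1r, within the quartiles of all promoters (45.7% to 61.7%), and above them in Vipr1 (73.7%) and Ace (69.7%). These letters are a description of the windows and not a test of any factor.

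Both endothelin receptor genes were lower in the fibroblasts of both models than in HSCs. Ednrb encodes the endothelin B receptor (NM_007904, mm10 chr14:103814615-103843701, minus strand). Its value was 8221.5, 5038 and 6464 in HSC replicates 1 to 3, 395.3, 656.6 and 291.9 in CCl4-fib, with 1460, 1270 and 712.5 for NASH-fib. The 3 groups did not overlap, HSCs being highest and CCl4-fib lowest. Ednrb was thus 14.7-fold lower in CCl4-fib than in HSCs by the ratio of means, with a log2 fold change of -3.93 ± 0.41 (SE; adjusted p = 9.93e-05, limma with Benjamini-Hochberg adjustment). In NASH-fib it was 5.73-fold lower than in HSCs (-2.55 ± 0.41; adjusted p = 0.00201, limma). Ednra encodes the endothelin A receptor (NM_010332, chr8:77663029-77724452, minus strand), which mediates contraction in smooth muscle. Its value was 2105, 2148 and 1469 in HSCs. CCl4-fib gave 301.6, 138.6 and 142.2, and the NASH-fib libraries gave 727.3, 772.2 and 286.0. All HSC libraries were above all fibroblast libraries, while NASH-fib replicate 3 fell below CCl4-fib replicate 1. Ednra was 9.83-fold lower in CCl4-fib (-3.37 ± 0.47; adjusted p = 0.000531, limma) and 3.21-fold lower in NASH-fib (-1.79 ± 0.47; adjusted p = 0.029, limma). The NASH-fib call of Ednra was lost without HSC replicate 1 (adjusted p = 0.101), HSC replicate 2 (0.0755) or NASH-fib replicate 3 (0.106), and also with edgeR (-1.61, adjusted p = 0.0578) and with a fit on these groups alone (-1.79, 0.0586). It was lost as well with the endothelial marker level as a term, where the log2 fold change was larger and its error wider (-3.47 ± 1.08; adjusted p = 0.388, limma), and with the label code described further on as a term (-1.58 ± 0.61; adjusted p = 0.252, limma). Its exons also overlap an uncharacterized transcript on the other strand, 4933431K23Rik, and reads were counted without regard to strand.

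The receptors were set against each other per kb of exon, since they differ in length. Ednrb was above Ednra in all 9 libraries. The ratio of Ednrb to Ednra per kb was 3.55, 2.13 and 4.00 in HSCs. CCl4-fib gave 1.19, 4.31 and 1.87, and the NASH-fib libraries gave 1.83, 1.50 and 2.27. The ranges of the groups overlapped, and the log2 ratio differed from HSCs by -0.55 in CCl4-fib (two-sided exact permutation p = 0.5) and by -0.76 in NASH-fib (exact p = 0.2), where 3 libraries against 3 allow no p below 0.1. The summed level of both receptors per kb was between 1852 and 2637 in HSCs, between 112.2 and 202.5 in CCl4-fib and between 257.0 and 565.5 in NASH-fib.

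Endothelial cells are a known site of Ednrb, so endothelial markers were set beside it. All 15 sinusoidal endothelial markers tested were called lower in CCl4-fib than in HSCs and 11 in NASH-fib. Within NASH-fib, Ednrb was highest in replicate 1 and lowest in replicate 3, while the endothelial sum was 5301.5, 1736.7 and 6575 in replicates 1 to 3. Within HSCs, Ednrb was highest in replicate 1, and the endothelial sum was highest in replicate 3. Within CCl4-fib both were highest in replicate 2 and lowest in replicate 3, where the endothelial sum was 519.1, 585.2 and 425.5 in replicates 1 to 3. The part of endothelial cells in the difference between groups cannot be told apart from the groups, since 95.9% of the variance of the endothelial marker level lay between the groups.

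The angiotensin II receptor gene was lower in both fibroblast groups too, with the smallest standard error of the 9 genes. Agtr1a encodes the type 1a angiotensin II receptor (NM_177322, chr13:30336356-30382867, plus strand), which mediates vasoconstriction. Its value was 2042, 2420 and 2941 in HSCs. CCl4-fib gave 284.9, 323.2 and 263.3, and the NASH-fib libraries gave 361.6, 524.6 and 295.8. HSCs lay above both fibroblast groups without overlap, and the fibroblast groups overlapped. Agtr1a was 8.50-fold lower in CCl4-fib (-3.07 ± 0.33; adjusted p = 0.000109, limma) and 6.26-fold lower in NASH-fib (-2.67 ± 0.33; adjusted p = 0.000393, limma) than in HSCs. Its near-identical paralog Agtr1b had at most 4 reads in any library, and how reads that match both genes were treated was not given in the sources used here.

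**Figure D2:**
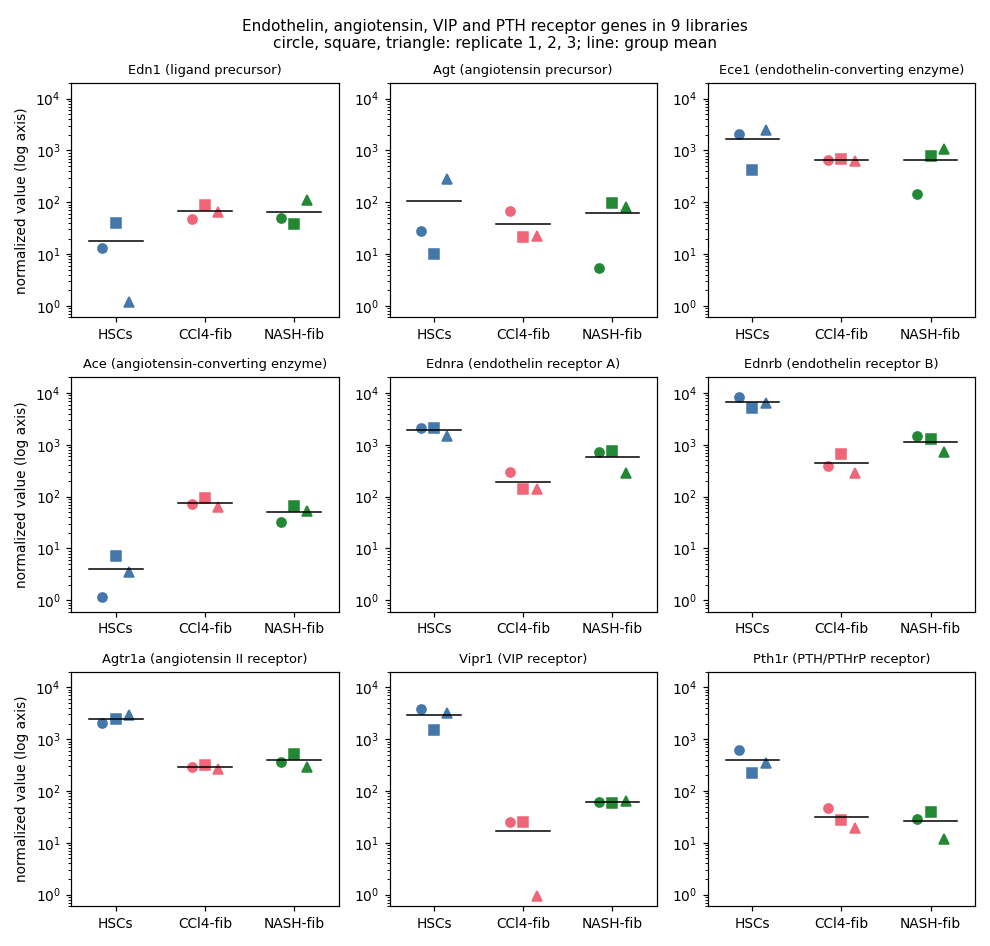
Normalized value (log axis) of the 9 genes in each library of HSCs, CCl4-fib and NASH-fib, with symbols for replicates 1, 2 and 3 and a line at the group mean. For Ednra, Ednrb, Agtr1a, Vipr1 and Pth1r all HSC points lie above all fibroblast points, and for Ace they lie below.

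The VIP receptor showed the largest fold difference of the 9 genes. Vipr1 encodes VPAC1, the receptor for VIP and PACAP (NM_011703, chr9:121642716-121672954, plus strand). Its value was 3887, 1523 and 3222 in HSCs. CCl4-fib gave 25.4, 25.5 and 0.95, and the NASH-fib libraries gave 61.2, 57.9 and 62.9. CCl4-fib replicate 3 held a single read of Vipr1 (value 0.95), and the NASH-fib libraries were close together and above all of CCl4-fib. The mean was 166-fold lower in CCl4-fib (-7.91 ± 0.87; adjusted p = 0.000132, limma) and 47.4-fold lower in NASH-fib (-5.44 ± 0.87; adjusted p = 0.00201, limma) than in HSCs. Without CCl4-fib replicate 3 the log2 fold change of CCl4-fib was -6.66 (adjusted p = 0.000158, limma), and without CCl4-fib replicate 1 or 2 it was -8.54. The summed endothelial markers had the same order of groups, and the part of endothelial cells in the values of Vipr1 was not tested.

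Pth1r, the receptor for parathyroid hormone and its related peptide PTHrP (NM_011199, chr9:110722085-110747145, minus strand), was lower in the fibroblasts of both models. Its value was 614.9, 225.7 and 344.3 in HSCs. CCl4-fib gave 46.8, 28.1 and 19.1, and the NASH-fib libraries gave 28.6, 40.1 and 11.8. No fibroblast library reached the lowest HSC library, and the fibroblast groups overlapped. Pth1r was 12.6-fold lower in CCl4-fib (-3.58 ± 0.58; adjusted p = 0.00136, limma) and 14.7-fold lower in NASH-fib (-3.87 ± 0.58; adjusted p = 0.00139, limma). An isoform of Myl3 shares exonic bases with Pth1r in the annotation, and Myl3 had a value of 3.56 at most.

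In contrast to the receptors, the converting enzyme of the angiotensin system was higher in fibroblasts. Ace encodes angiotensin-converting enzyme (NM_001281819, chr11:105967945-105989964, plus strand). Its value was 1.17, 7.28 and 3.59 in HSCs, from 1, 5 and 3 reads, 73.0, 96.1 and 62.0 in CCl4-fib, with 32.6, 66.8 and 54.0 for NASH-fib. Every fibroblast library was above every HSC library, and the 2 fibroblast groups overlapped. The mean of Ace was 19.2-fold higher in CCl4-fib (4.14 ± 0.59; adjusted p = 0.000653, limma) and 12.8-fold higher in NASH-fib (3.52 ± 0.59; adjusted p = 0.00271, limma). Markers of other cell types were called higher with it against HSCs, namely 8 of 9 smooth muscle markers in CCl4-fib and 7 in NASH-fib, all 6 mesothelial and all 6 portal fibroblast markers in both, and 4 and 6 of 6 cholangiocyte markers. The smooth muscle sum ran from 201.0 to 960.0 in HSCs, from 7975.2 to 20176.2 in CCl4-fib and from 6529.0 to 29251.8 in NASH-fib, and the mesothelial sum from 601.4 to 985.4, from 16041.5 to 22183.5 and from 25119.3 to 31713.3. Tagln of the smooth muscle list and Spp1 of the cholangiocyte list are also in the list of activated fibroblast markers. The part of these cell types in the values of Ace was not tested. The antisense gene Gm11651 shares exonic bases with Ace and had a value of 2.95 at most.

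Ligand precursors were at low levels. Edn1 encodes the precursor of endothelin-1 (NM_010104, chr13:42301270-42307989, plus strand). Its value was 12.9, 39.3 and 1.2 in HSCs. CCl4-fib gave 48.4, 89.3 and 64.9, and the NASH-fib libraries gave 50.3, 38.3 and 109.1. All CCl4-fib libraries were above all HSC libraries, whereas NASH-fib replicate 2 fell just below HSC replicate 2. The means were 3.80-fold and 3.70-fold those of HSCs, and neither difference passed the test (CCl4-fib 2.63 ± 0.91, adjusted p = 0.0534; NASH-fib 2.50 ± 0.91, adjusted p = 0.116, limma). Without HSC replicate 2, Edn1 passed in both (3.59, adjusted p = 0.0109, and 3.45, adjusted p = 0.0207, limma), and without NASH-fib replicate 1 it passed in CCl4-fib (2.63, adjusted p = 0.0483, limma). Without HSC replicate 3, which held 1 read, the log2 fold changes were 1.49 and 1.36. Gm47118, an antisense transcript, shares exonic bases with Edn1.

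Agt encodes angiotensinogen, which hepatocytes are known to secrete (NM_007428, chr8:124556587-124569707, minus strand). Its value was 28.1, 10.2 and 282.1 in HSCs. CCl4-fib gave 69.0, 21.3 and 21.9, and the NASH-fib libraries gave 5.44, 97.1 and 81.6. A single library, HSC replicate 3, was far above the other two of its group, and all groups overlapped. The log2 fold changes of Agt were -0.45 (95% interval -3.26 to 2.35; adjusted p = 0.811, limma) in CCl4-fib and -0.27 (-3.08 to 2.53; adjusted p = 0.952, limma) in NASH-fib, both of which turned positive without HSC replicate 3 (0.87 and 1.05). The sum of the 14 hepatocyte markers was highest in HSC replicate 3 (52434.3), where Agt was highest too, while in NASH-fib replicate 1, where Agt was lowest, it was 35484.9. The part of hepatocytes in the values of Agt was not tested. Ece1, endothelin-converting enzyme 1 (NM_199307, chr4:137862237-137965229, plus strand), did not pass the test either. Its value was 2061, 423.7 and 2487 in HSCs. CCl4-fib gave 642.9, 683.0 and 624.0, and the NASH-fib libraries gave 146.8, 782.0 and 1077. HSC replicate 2 was below all CCl4-fib libraries, so the groups overlapped. The log2 fold change of Ece1 was -0.99 (95% interval -2.74 to 0.75; adjusted p = 0.367, limma) in CCl4-fib and -1.38 (-3.12 to 0.37; adjusted p = 0.365, limma) in NASH-fib. Without HSC replicate 2, 1 or 3 the change in CCl4-fib was -1.80, -0.66 or -0.52, and in NASH-fib it was -2.18 without HSC replicate 2, -0.91 without HSC replicate 3 and -0.50 without NASH-fib replicate 1, and it was not called in any of these.

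Against HSCs, 1 of the 9 genes was called higher and 5 lower in CCl4-fib. Of all genes tested in this comparison, 16.2% were called higher and 11.7% lower. The median log2 fold change of the 9 was -3.07, against 0.18 for all tested genes. In NASH-fib the counts were again 1 higher and 5 lower, where 8.23% of all genes were called higher and 4.3% lower, with a median of -1.79 against -0.02. The libraries did not overlap for 2 genes above and 5 below HSCs in CCl4-fib, as for 27.8% and 20.9% of all genes (48.6% in either direction), and for 1 above and 5 below in NASH-fib, as for 12.7% and 11.6% of all genes (24.4%). The comparisons share the HSC libraries and are not independent. Labels of libraries begin with a code of unstated meaning, and HSC replicate 2, CCl4-fib replicate 1 and NASH-fib replicate 1 share the code 11-3. Among these, the log2 difference of Ednrb from the HSC library was -3.67 in CCl4-fib and -1.79 in NASH-fib, and that of Vipr1 was -5.85 and -4.62. The difference was -2.83 and -1.56 for Ednra, -3.08 and -2.74 for Agtr1a, and -2.24 and -2.94 for Pth1r. For Ace it was 3.16 and 2.02, for Edn1 0.29 and 0.35, for Agt 2.65 and -0.80, and for Ece1 0.60 and -1.52. NASH-fib replicate 1 is the library whose correlation with HSC replicate 2 exceeded that with NASH-fib replicate 2. HSC replicate 3 and CCl4-fib replicate 2 share the code 11-4, and there the difference was -3.30 for Ednrb, -3.40 for Ednra, -3.18 for Agtr1a, -6.93 for Vipr1, -3.57 for Pth1r, 4.40 for Ace and 5.36 for Edn1. For Agt it was -3.67 and for Ece1 -1.86, both of which were positive in CCl4-fib under 11-3. With this code as a term of the fit, 1 of the 9 genes was called lower and 0 higher in NASH-fib against HSCs, and 5 lower had an unadjusted p under 0.05. The gene still called was Agtr1a (adjusted p = 0.0211, limma), where 0.872% of all genes were called lower. With the hepatocyte marker level as a term, 0 of the 9 were called by limma in CCl4-fib against HSCs, as for all but 0.117% of tested genes, and 1 higher and 5 lower had an unadjusted p under 0.05. The log2 fold changes of these 6 were larger in size than without the term and their errors wider, as for Ednra (-5.22 ± 1.01) and Ednrb (-5.09 ± 0.98).

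**Figure D3:**
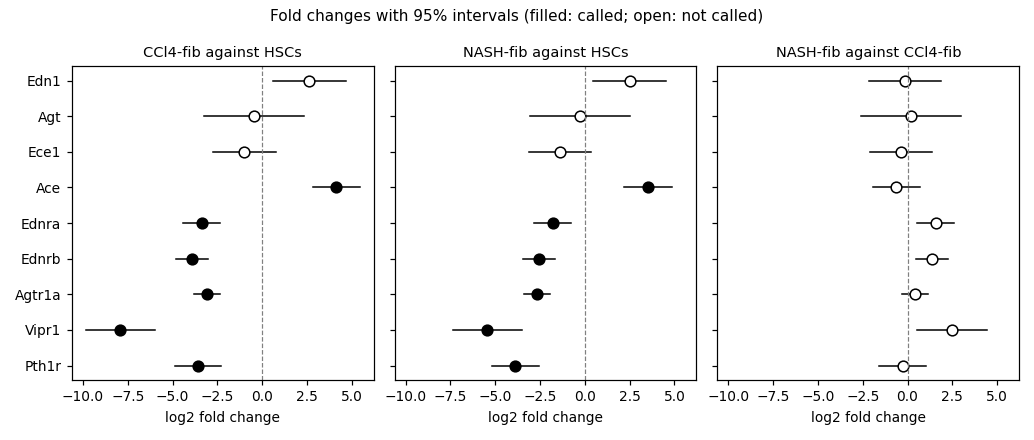
Log2 fold change of the 9 genes with 95% intervals in the 3 comparisons, filled where called and open where not. In the comparisons with HSCs 5 receptor genes are called to the left of 0 and Ace to the right, and in NASH-fib against CCl4-fib no gene is called.

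NASH-fib were compared with CCl4-fib to see where the fibrosis models differ, and 0 of the 9 genes were called by limma. In NASH-fib, 4.97% of all tested genes passed as higher and 5.66% as lower. An unadjusted p under 0.05 was found for 3 of the 9, Ednrb, Ednra and Vipr1, all with higher means in NASH-fib. Ednrb was 2.56-fold higher without overlap (1.37, 95% interval 0.47 to 2.28; adjusted p = 0.057, limma). Ednra was 3.07-fold higher with overlap (1.58, 0.55 to 2.61; adjusted p = 0.0552, limma). Vipr1 was 3.51-fold higher without overlap (2.47, 0.54 to 4.41; adjusted p = 0.096, limma), and without CCl4-fib replicate 3 the log2 fold change was 1.22. These 3 were called by DESeq2 on the recovered reads (adjusted p of 0.00683, 0.00583 and 0.0321), and edgeR called Ednrb and Ednra (0.0475 and 0.0434) but not Vipr1 (0.109). Of all genes tested, DESeq2 called 11.1% higher and edgeR 5.88%. With the label code as a term, limma called Ednrb (1.74, adjusted p = 0.0493) and Vipr1 (3.37, adjusted p = 0.047), and 2.52% of all genes as higher. Among libraries that share a code, the log2 difference of NASH-fib from CCl4-fib was 1.88 and 1.70 for Ednrb, 1.27 and 1.72 for Ednra, and 1.24 and 4.98 for Vipr1, under 11-3 and 11-7. Under 11-3, 1 library was set against 1, and under 11-7, 2 NASH-fib libraries against CCl4-fib replicate 3. That CCl4-fib library held 1 read of Vipr1. Non-overlapping libraries in the direction of NASH-fib were seen for 2 of the 9 genes and for 17.1% of all genes, and the reverse for 0 of the 9 and 22.0% of all genes (39.1% in either direction). The other 6 log2 fold changes lay between -0.62 for Ace and 0.40 for Agtr1a, with intervals of -1.93 to 0.70 and of -0.32 to 1.13. The endothelial markers were also higher in NASH-fib, where 11 of 15 were called, and their part in the values of Ednrb, Ednra and Vipr1 was not tested. The median log2 fold change of all genes in this comparison was -0.11, and it was 0.25 higher under the TMM scaling of edgeR and 0.23 higher under the size factors of DESeq2. In CCl4-fib against HSCs these scalings moved the median of 0.18 by -0.18 and -0.16. The share of calls that were higher was 46.7% with limma and 58.8% with edgeR.

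Ranked by mean level per kb of exon, the order of the 9 genes changed between groups. In HSCs the order was Ednrb (1645 ± 399, mean ± SD, n = 3), Agtr1a (1083 ± 198), Vipr1 (589 ± 249), Ednra (525 ± 105), Ece1 (346 ± 227), Pth1r (179 ± 90.4), Agt (58.3 ± 83.0), Edn1 (7.61 ± 8.36) and Ace (0.792 ± 0.607). The libraries of neighbours in this order overlapped except for Agtr1a and Vipr1. In CCl4-fib, Ece1 (135.6 ± 6.28), Agtr1a (127.5 ± 13.3) and Ednrb (112.1 ± 47.0) led, with overlapping libraries. Vipr1 was last (3.54 ± 2.90), below Pth1r (14.2 ± 6.42) without overlap. In NASH-fib, Ednrb (287 ± 97.2) was again first, before Agtr1a (173 ± 51.7), Ednra (164 ± 73.9) and Ece1 (139.5 ± 99.2), with neighbours overlapping. Below a gap that separated Edn1 (28.2 ± 16.2) from Vipr1 (12.4 ± 0.521), Pth1r (12.2 ± 6.45) and Ace (10.1 ± 3.41) followed. Vipr1 was thus among the upper genes in HSCs and last in CCl4-fib, and Ace was last in HSCs and in NASH-fib.

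**Figure D4:**
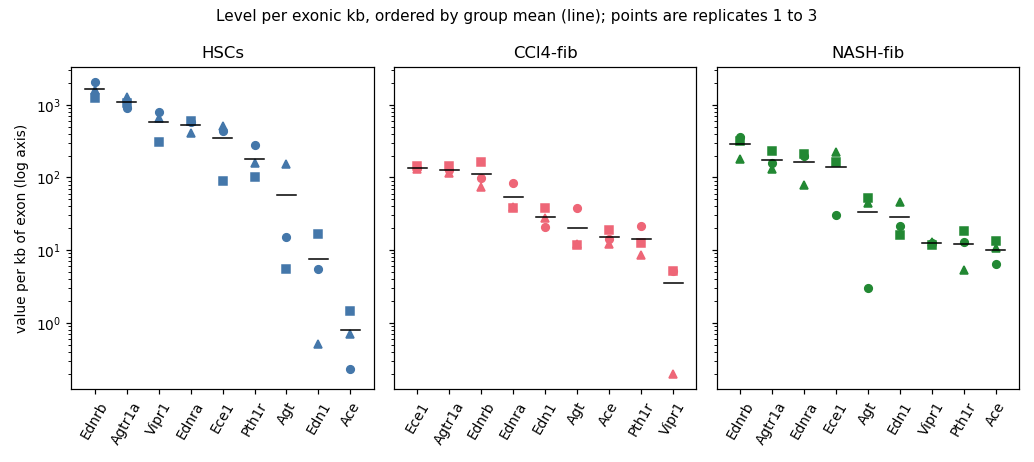
Normalized value per kb of exon (log axis) of the 9 genes in each group, ordered by the group mean (line), with symbols for replicates 1, 2 and 3. By the group mean, Ednrb leads in HSCs (1645) and NASH-fib (287) and Ece1 in CCl4-fib (135.6), each with libraries that overlap the next gene.

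The genes whose pattern over the 9 libraries was most like each of these are given by Pearson's r of log2(value + 1), as a description. Each r rests on the same 9 libraries. For Ednrb they were Bmp5 (0.988), Hsd11b1 (0.985) and Aard (0.978), and for Ednra Tbx20 (0.979), Akirin1 (0.978) and Itga1 (0.973). For Agtr1a they included Ntn1 (0.986) and Tgfbi (0.986), for Vipr1 Ehd3 (0.982), Sprn (0.981) and Fam124a (0.977), and for Pth1r the adrenoceptor gene Adra2b (0.964), Sept4 (0.963) and Syt12 (0.962). Ace was most like Creb5 (0.996), Junb (0.987) and Pdlim3 (0.983). Edn1 was most like Plau (0.938), Zfp451 (0.926) and Sestd1 (0.918), Ece1 like Fkbp15 (0.977), Rasgrp2 (0.973) and Fam160b1 (0.970), and Agt like Tmem140 (0.954), 3110062M04Rik (0.948) and Madd (0.943).

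The other genes of the same pathways were counted from lists written from general knowledge. Of the endothelin system, Ece2 and Mme, a second converting enzyme and neprilysin, were the genes tested besides Edn1, Ece1, Ednra and Ednrb, and neither was called in any comparison. The other ligands had few reads, with at most 12 in a library for Edn2 and 6 for Edn3. Of the renin-angiotensin system, 11 other genes were tested, of which 1 was called higher and 0 lower in CCl4-fib, and 1 higher and 1 lower in NASH-fib, against HSCs. These are 9.09% and 18.2% of the list, beside 27.8% and 12.5% of all tested genes. Ren1, which encodes renin, had no read in HSCs and values of 100.8, 2.55 and 29.6 in CCl4-fib, with 10.9, 16.0 and 67.8 for NASH-fib. CCl4-fib was at least 11.6-fold higher and NASH-fib at least 8.26-fold higher, against a floor of 3 reads per HSC library, and 1 CCl4-fib library held no more than 3 reads. Agtrap, whose product binds and internalizes the type 1 receptor, was 444.2, 479.1 and 345.5 in HSCs and 69.3, 161.2 and 116.0 in NASH-fib (-1.93 ± 0.39; adjusted p = 0.00788, limma), and lower there than in CCl4-fib too (-1.79 ± 0.39; adjusted p = 0.0222, limma). The median log2 fold change of the 11 was -0.12 in CCl4-fib and 0.13 in NASH-fib, against 0.18 and -0.02 for all tested genes. Agtr2, the type 2 receptor, had 0 reads in 6 libraries and at most 25 in another.

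**Figure D5:**
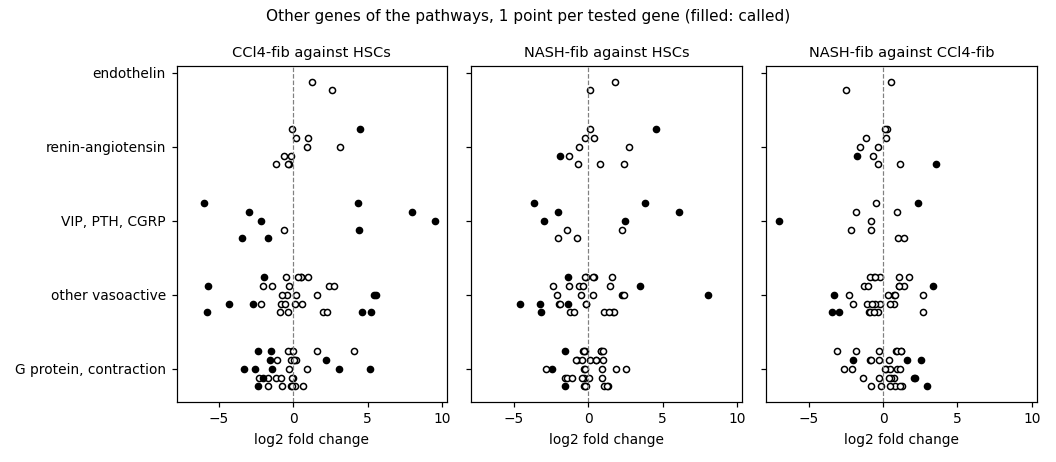
Log2 fold change of the other tested genes of 5 pathway lists in the 3 comparisons, 1 point per gene, filled where called. In CCl4-fib against HSCs 9 of the 10 genes of the VIP, PTH and CGRP list are filled, and in the renin-angiotensin list 1 of 11.

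Among genes of the VIP, PTH and CGRP families, 3 of 4 tested ligand genes were called higher and most receptor genes lower in CCl4-fib than in HSCs. Of 10 other genes tested, 4 were called higher and 5 lower in CCl4-fib and 3 higher and 3 lower in NASH-fib against HSCs, which is 90% and 60% of them beside 27.8% and 12.5% of all tested genes. Their median log2 fold changes were -1.17 and -1.09. Those called higher in CCl4-fib were the ligand genes Calca, Calcb and Pthlh and the receptor gene Vipr2, and those called lower were receptor or receptor-subunit genes. Adm, which encodes the ligand adrenomedullin, was not called (-0.61 ± 0.50; adjusted p = 0.386, limma). Calcrl, the receptor shared by CGRP and adrenomedullin, was 13516, 11077 and 8479 in HSCs. CCl4-fib gave 196.1, 200.7 and 117.3, and the NASH-fib libraries gave 1376, 454.2 and 1029. The groups did not overlap, and Calcrl had log2 fold changes of -6.01 in CCl4-fib and -3.65 in NASH-fib, both called by limma. It is known from endothelial cells, whose markers moved the same way, and their part was not tested. Its partner subunits Ramp1 and Ramp2, named after their values were seen, were also called lower, with log2 fold changes of -2.17 and -2.95 in CCl4-fib and of -2.97 and -2.05 in NASH-fib.

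Calca, which encodes CGRP and calcitonin, had values of 0, 1.46 and 1.20 in HSCs. CCl4-fib gave 574.6, 1544.5 and 2382.3, and the NASH-fib libraries gave 8.16, 10.7 and 7.86. The HSC values rest on 0, 1 and 1 reads, and the log2 fold change was 9.52 in CCl4-fib (adjusted p = 1.18e-05, limma) and 2.48 in NASH-fib (adjusted p = 0.024, limma). The level fell by 7.03 on the log2 scale from CCl4-fib to NASH-fib (adjusted p = 0.002, limma). Its paralog Calcb had 3, 0 and 1 reads in HSCs. Its value was 178.6, 750.1 and 1125.8 in CCl4-fib, with 85.6, 206.6 and 189.7 for NASH-fib (log2 fold changes of 7.96 and 6.13, both called by limma), and reads on sequence that the pair share may have been given to either. Pthlh, which encodes the Pth1r ligand PTHrP, had no read in HSCs and values of 10.3, 50.2 and 16.2 in CCl4-fib, with 2.72, 2.67 and 6.88 for NASH-fib. It was called higher in CCl4-fib, at least 6.69-fold (adjusted p = 0.00191, limma), and not in NASH-fib (adjusted p = 0.0913, limma). Vip, Adcyap1 and Pth, the ligand genes for Vipr1 and Pth1r, had 0 reads in every library, which allows a value of up to 2.38 to 4.37. Vipr2, the second VIP receptor, chosen for naming after its values were seen, had no read in HSCs and values of 23.8, 35.7 and 8.59 in CCl4-fib, with 40.8, 2.67 and 18.7 for NASH-fib. It was called higher in both (at least 5.94-fold, adjusted p = 0.00586, and at least 5.42-fold, adjusted p = 0.0194, limma), where Vipr1 was lower. In NASH-fib replicate 2, Vipr2 was no higher than the value of 3 reads (2.67).

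Other vasoactive receptors, listed together with the nitric oxide synthases, were mixed. Of 32 tested, 4 were called higher and 5 lower in CCl4-fib and 3 higher and 6 lower in NASH-fib, which is 28.1% of the list in each, beside 27.8% and 12.5% of all tested genes. The median was -0.08 in CCl4-fib and -0.21 in NASH-fib, or -0.31 with genes at the floor set to their bound. Between NASH-fib and CCl4-fib, 1 gene of this list was called higher, the synthase gene Nos3 (log2 fold change 3.35), and 3 lower. That is 12.5% of the list beside 10.6% of all genes. Of the VIP, PTH and CGRP list, 1 was called higher and 1 lower. Npy1r, a receptor for the vasoconstrictor neuropeptide Y, was 5.84, 11.7 and 0 in HSCs. CCl4-fib gave 451.6, 102.9 and 142.2, and the NASH-fib libraries gave 1356.6, 1107.0 and 1146.0, with log2 fold changes of 5.42 and 8.08 against HSCs. Adora2b, an adenosine receptor, had no read in HSCs and 38.1, 50.2 and 51.5 in CCl4-fib, at least 12.2-fold above the floor, and 4.08, 3.56 and 3.93 in NASH-fib. It was called higher in NASH-fib than in HSCs too (2.28 ± 0.59; adjusted p = 0.0275, limma). That call rests on 3, 4 and 4 reads, at least 1.01-fold above the floor. P2ry1, a receptor for ADP, was 183.5, 419.4 and 222.4 in HSCs and at most 8.73 in CCl4-fib and 62.5 in NASH-fib, with log2 fold changes of -5.83 and -3.18. Nos3, the endothelial nitric oxide synthase, was 37.4, 81.5 and 46.6 in HSCs, had no read in CCl4-fib, at least 21.2-fold lower, and was 27.2, 4.45 and 5.90 in NASH-fib. Cdh5, another endothelial gene, had at most 3.97 in CCl4-fib and between 40.1 and 191.7 in NASH-fib. The part of endothelial cells in the values of P2ry1 and Nos3 was not tested.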

How the data were processed

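RNA sequencing gave 3 libraries per group, amplified with the SMARTer kit and read single-end. The authors aligned reads to mm10 with STAR and counted them with HOMER on RefSeq exons, either strand, at most 3 reads per position. The deposited values are a normalized signal per gene, counts times 1 factor per library. The command that made them named 10 libraries, 1 of which is not among the 9 value columns. Whole reads could be recovered for 100% of values (tolerance 0.006). No library was a copy of another (chi-square per gene 16.2 to 159.1).

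Tests used limma 3.58.1 in R 4.3.3 on log2(value + 1), 1 fit over 9 libraries with a trend, on 13651 genes kept by filterByExpr of edgeR 4.0.16 (minimum count 10), with Benjamini-Hochberg adjustment. The pseudocount shrinks fold changes of low genes, as for Edn1 in CCl4-fib against HSCs (2.77 at pseudocount 0.5 and 2.05 at 5). Fold changes of low genes can still exceed those of other methods. For Edn1 in that comparison limma gave 2.63, and DESeq2 and edgeR each gave 1.80. Code was tested on simulated data. Alternatives were DESeq2 1.42.0, edgeR, other scaling, pseudocounts, filters and terms, and leaving out each library.

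The genes, lists and tests were chosen with earlier results of these data known. Named were the 9 genes, up to 4 called non-members per pathway list with the largest change in any comparison, the 3 genes most like each of the 9, Mc4r, Col1a1 and Acta2, and cell type markers. Pathway genes with too few reads for the test, Ece2, Mme, Adm, Lrat, Vipr2, Ramp1 and Ramp2 were named after their values were seen. Of the genes these rules select, 2 are not reported here. Intervals and floors cover counting error or spread between libraries only, since amplified reads are not independent molecules.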

Additional observations from a re-analysis of the deposited data

How the results depend on the processing

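Counts of the 9 genes called higher and lower were 1 and 5 against HSCs in both models, and 0 and 0 in NASH-fib against CCl4-fib, and 30, 20 and 14 of the 90 other pathway genes tested were called (33.3%, 22.2% and 15.6%, beside 27.8%, 12.5% and 10.6% of all genes). With the hepatocyte marker level as a term, CCl4-fib gave 0 and 0, and the pathway counts were 0, 12 and 0. With the endothelial level as a term, all counts were 0, with 4 of the 9 lower at an unadjusted p under 0.05 against HSCs in each model, and 84.4% and 95.9% of the variance of these levels lay between groups. The errors widened (Ednra in CCl4-fib from 0.47 to 1.01 and 2.17 with these terms), while its log2 fold change went from -3.37 to -5.22 and -6.97. Pseudocount 5 gave 2 higher in CCl4-fib and 1 in NASH-fib against CCl4-fib. With the label code as a term, NASH-fib gave 0 and 1 against HSCs and 2 higher against CCl4-fib, with 7 and 4 pathway genes. Against CCl4-fib, DESeq2 called 3 higher, edgeR 2 and upper-quartile scaling 2, with 27 pathway genes under DESeq2. In NASH-fib against HSCs, a fit on these groups alone called 9 pathway genes, and 1 higher and 4 lower of the genes examined. Leaving out each library gave 1 to 2 higher in CCl4-fib, 1 to 2 higher and 4 to 5 lower in NASH-fib against HSCs, and 20 to 40, 8 to 19 and 1 to 19 pathway genes. In NASH-fib against HSCs the pathway count was 8, 13 and 11 without HSC replicate 1 and NASH-fib replicates 2 and 3, and against CCl4-fib it was 9, 1 and 6 without CCl4-fib replicates 1, 2 and 3, and 5 and 2 without NASH-fib replicates 1 and 3. The replicate numbers did not pair the libraries (r of deviations -0.473 to 0.514), and with the replicate block the counts were 1 and 5, 1 and 5, and 0, with 25, 14 and 10 pathway genes, so no call of the 9 changed. Directions reversed only in comparisons in which limma had not called that gene, and the cause was not tested. Against CCl4-fib, Edn1 (-0.14) became 0.15 with DESeq2, 0.16 with edgeR, 0.19 with the hepatocyte term, 0.02 with upper-quartile scaling, and 0.09 and 0.18 without CCl4-fib or NASH-fib replicate 2. Ece1 (-0.38) became 0.15 with DESeq2, 0.18 with edgeR and 0.50 without NASH-fib replicate 1 (leaving out each library gave -0.94 to 0.50 for Ece1 and -0.57 to 0.18 for Edn1). Agt reversed to 1.09 and 0.04 against HSCs and -1.04 against CCl4-fib with the hepatocyte term, to 0.87 and 1.05 without HSC replicate 3, to 0.99 without NASH-fib replicate 1, and, against CCl4-fib, to -0.10, -0.08, -0.51 and -0.39 without replicates 2 and 3 of CCl4-fib and of NASH-fib. Its ranges over libraries left out were -1.46 to 0.87, -1.28 to 1.05 and -0.51 to 1.45. Ace became 0.06 with the endothelial term, and Pth1r (-0.28) became 1.61 and 1.74 with the hepatocyte and endothelial terms, 0.05 and 0.20 without replicate 1 of CCl4-fib or 3 of NASH-fib (range over libraries left out -0.64 to 0.20). Of the values of single genes under alternatives, 474 kept direction and side of the threshold, 28 lost it, 14 gained it and 24 reversed. With 3 pools per group, genes of few reads such as Ace and Edn1 in HSCs have wide errors, and no exact p below 0.1 can be had.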

Other observations

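Genes that act downstream of these receptors were also counted. Of 35 tested genes of G protein and contraction signalling, 3 were called higher and 8 lower in CCl4-fib against HSCs, 0 higher and 3 lower in NASH-fib against HSCs, and 5 higher and 1 lower in NASH-fib against CCl4-fib. These are 31.4%, 8.57% and 17.1% of the list, beside 27.8%, 12.5% and 10.6% of all tested genes. Rgs4, which shortens Gq signals, was 1475, 1845 and 600.2 in HSCs. CCl4-fib gave 931.0, 147.1 and 355.9, and the NASH-fib libraries gave 4160, 2716 and 1928. Rgs4 was higher in NASH-fib than in CCl4-fib (log2 fold change 2.93, called by limma). All NASH-fib libraries were above all others for Rgs4. The others called in this comparison, named after their values were seen, were Rgs2 (2.56), Rgs5 (2.11), Plcb1 (2.10) and Rock1 (1.61), which were higher, and Gna11 (-2.06), which was lower. Rgs16, of the same family, was at most 5.98 in HSCs and 62.7, 79.1 and 63.9 in CCl4-fib (log2 fold change 5.18), against 8.16, 9.80 and 12.8 in NASH-fib, which was not called against CCl4-fib (-2.64; adjusted p = 0.0552, limma). Itpr3, an IP3-gated calcium channel, rose from 8.18, 2.91 and 11.96 in HSCs to 73.8, 85.9 and 42.9 in CCl4-fib (log2 fold change 3.09), while NASH-fib gave 2.72, 28.5 and 30.5. Plcb2, a phospholipase C of blood cells, was 18.7, 11.7 and 25.1 in HSCs and had 1 read in each CCl4-fib library (log2 fold change -3.33, called by limma), where the summed macrophage markers were also lower (392.1 to 766.3, against 4982.2 to 16075.3 in HSCs). The part of macrophages in this value was not tested.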
